A study of Mus musculus with 40 samples.

Results

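The step examined here is the third to the fourth postnatal week in astrocytes of mice raised in light: 6 of the 40 RNA-seq libraries of the series, 3 from postnatal day (P) 28 and 3 from P21, chosen by their age, rearing and vector labels, and all 17106 genes with enough counts to test out of 25239 in the table. All mice carried the floxed glucocorticoid receptor gene (GRfl/fl; the gene is Nr3c1) and had been injected into primary visual cortex (V1) at P0 to P1. The vector of the P28 and P21 libraries used here, an AAV2/5, carried ΔCre, whose recombinase is inactive, so that the receptor gene stayed intact (GR-Con). Its GfaABC1D promoter is astrocyte-selective, and a KASH tag puts its EGFP on the nuclear envelope. Normal rearing (NR) was a reversed light cycle of 12 h light and 12 h dark. Dark-reared (DR) GR-Con libraries of P28 and P21 (4 of each) and NR libraries with active Cre (GR-KO, 3 of each) served for comparison, and 3 NR GR-Con libraries of P14 give the age before. Each replicate pooled the V1 of 1 female and 1 male mouse, and DRAQ5- and GFP-positive nuclei were sorted from it, so the values are nuclear RNA, and p-values measure the spread between such pools.

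P21 to P28 lies within the critical period, when vision still shapes the wiring of V1. Astrocytes are then completing their maturation: they take up glutamate and GABA, contact vessels with aquaporin-rich endfeet, secrete and trim the matrix that surrounds synapses, and keep transcription factors such as SOX9 and the Notch effectors HES1 and HES5 from their origin as radial glia. The comparison asks what still changes in these nuclei in the last of the sampled weeks, after the larger step between P14 and P21.

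The P28 libraries held 32241288 to 39113714 counts and the P21 libraries 17240294 to 24308989 counts, without overlap. The 6 NR libraries of P21, of both genotypes, were the shallowest of the series (17240294 to 28137389 counts, against 29500264 to 49221787 in the other 34), so that under NR the age of a library cannot be told apart from its depth; in DR GR-Con libraries the depths were closer, at 41302298 to 48032718 counts at P28 and 38176971 to 41532457 at P21. Astrocyte identity genes summed to 19262, 19799 and 19801 CPM at P28, against 23108, 21691 and 22856 CPM at P21, the highest of the lists of cell type markers, and 16 neuron marker genes to 3728, 3195 and 2882 CPM at P28, against 3760, 3766 and 3666 CPM at P21. Defining microglia genes gave 82.0 to 103 CPM in sum at P28 and 85.3 to 93.5 CPM at P21. CPM is the usual count of reads relative to the library total, here scaled by TMM (trimmed mean of M-values). Nr3c1 itself measured 224, 229 and 241 CPM at P28, against 229, 225 and 216 CPM at P21. For Nr3c1 the log2 fold change was 0.054 ± 0.094 (edgeR adjusted p = 0.819).

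Between P21 and P28, 404 of the 17106 genes were called, 2.36% of those tested: 239 were higher at P28 (1.4%) and 165 lower (0.965%). A call is an adjusted p below 0.05 in edgeR's quasi-likelihood test, fitted on all 40 libraries, with an absolute log2 fold change above 0.3. Most changes were small: 193 of the 239 and 146 of the 165 were at most 1 on the log2 scale. The step from P14 to P21, which uses the same P21 libraries, had 2335 calls (13.7%), 1117 higher (6.53%) and 1218 lower (7.12%) at P21. Replicates of P28 and P21 did not overlap for 3837 genes (22.4% of those tested), among them 221 of the 239 genes called higher and 164 of the 165 called lower. The share of calls that were higher, 59.2%, depended on the scaling: it was 50.0% with DESeq2 size factors and 41.2% in a fit of the 6 libraries alone. With every one of the 6 libraries left out in turn, 64 genes stayed called in the same direction, 28 higher and 36 lower, and 62 of these 64 were also called after all libraries had been thinned to the depth of the shallowest.

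**Figure D1:**
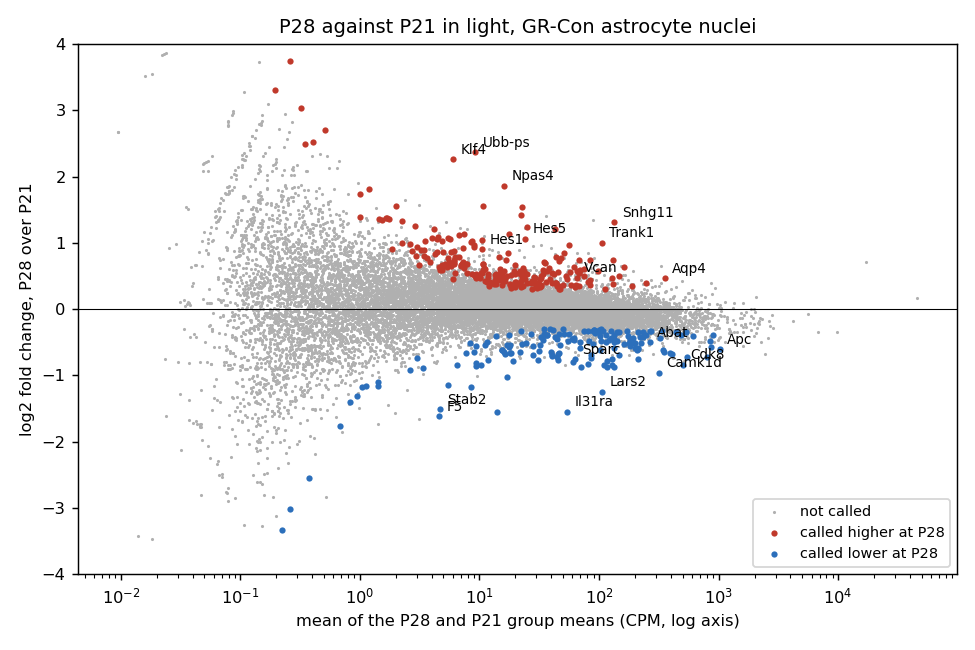
Log2 fold change of P28 over P21 in NR GR-Con nuclei against the mean of the group means of each gene (CPM, log axis). Red points are the 239 genes called higher at P28, blue points the 165 called lower and grey points the rest; 42 genes lie beyond an absolute log2 fold change of 4 and are not plotted, and the named genes are those described in the text.

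Among the genes that rose, Snhg11, a long noncoding host gene of small nucleolar RNAs, at chr2:158375713-158386474, measured 213, 192 and 171 CPM at P28, against 65.9, 79.8 and 86.5 CPM at P21. For Snhg11 the log2 fold change was 1.31 ± 0.28 (edgeR adjusted p = 0.00862). Trank1, a protein-coding gene of ankyrin and tetratricopeptide repeats, measured 164, 135 and 126 CPM at P28, against 69.6, 67.4 and 75.1 CPM at P21. For Trank1 the log2 fold change was 1.0 ± 0.19 (edgeR adjusted p = 0.00283). Mir124a-1hg, the host transcript of a neuronal microRNA, measured 26.7, 25.4 and 20.2 CPM at P28, against 9.33, 11.5 and 12.1 CPM at P21. For Mir124a-1hg the log2 fold change was 1.13 ± 0.26 (edgeR adjusted p = 0.0158). In all 3 every P28 library lay above every P21 library. The P14 libraries stood at 91.2 ± 17.5, 74.3 ± 5.28 and 13.1 ± 2.39 CPM (mean ± SD, n = 3), with 77.4 ± 10.5, 70.7 ± 3.94 and 11 ± 1.46 CPM at P21. They rose in the dark as well, by 1.19, 0.69 and 1.03 on the log2 scale (edgeR adjusted p = 0.00788, 0.0166 and 0.0099). Snhg11 and Mir124a-1hg are expressed in neurons, whose 16 markers had 0 calls in either direction in the light (median log2 fold change -0.22); the part of neuronal RNA in these values was not tested. Snhg11 was not called without P21 replicate 1 (1.2). Mir124a-1hg was not called without P21 replicate 1 (1.02), P21 replicate 2 (1.16), P28 replicate 1 (1.05) or P28 replicate 2 (1.09). In bulk nuclei, fewer cells of a type and less RNA per cell cannot be told apart.

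Lpcat2, an acyltransferase of lysophospholipids, measured 8.79, 7.62 and 6.46 CPM at P28, against 3.83, 3.27 and 3.86 CPM at P21. For Lpcat2 the log2 fold change was 1.06 ± 0.18 (edgeR adjusted p = 0.0008). Ikzf1, the transcription factor IKAROS of blood cells, measured 7.06, 5.51 and 5.31 CPM at P28, against 2.69, 2.34 and 3.52 CPM at P21. For Ikzf1 the log2 fold change was 1.05 ± 0.25 (edgeR adjusted p = 0.0198). Both were called in all 3 arms that set P28 against P21, that is NR GR-Con, NR GR-KO and DR GR-Con, which have no library in common. There were 16 such genes, 10 higher and 6 lower; the others that rose were Snhg11, Trank1, Ica1, Dock10, Tmem63a, Phldb1 and the noncoding C030029H02Rik and Gm19500. Ica1, an autoantigen on secretory granules and Golgi membranes, measured 62.1, 57.4 and 53.8 CPM at P28, against 36.9, 34.9 and 33.6 CPM at P21. For Ica1 the log2 fold change was 0.72 ± 0.15 (edgeR adjusted p = 0.00863). Phldb1, a partner of microtubules at the cell cortex, measured 69.1, 65.8 and 54 CPM at P28, against 46, 45.9 and 45.5 CPM at P21. For Phldb1 the log2 fold change was 0.46 ± 0.087 (edgeR adjusted p = 0.0027). Ikzf1 was not called without P21 replicate 1 (1.01), P21 replicate 2 (0.92) or P28 replicate 1 (0.91). Ica1, Phldb1 and the other genes of this set were taken from the overlap of the calls, after their values were seen.

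**Figure D2:**
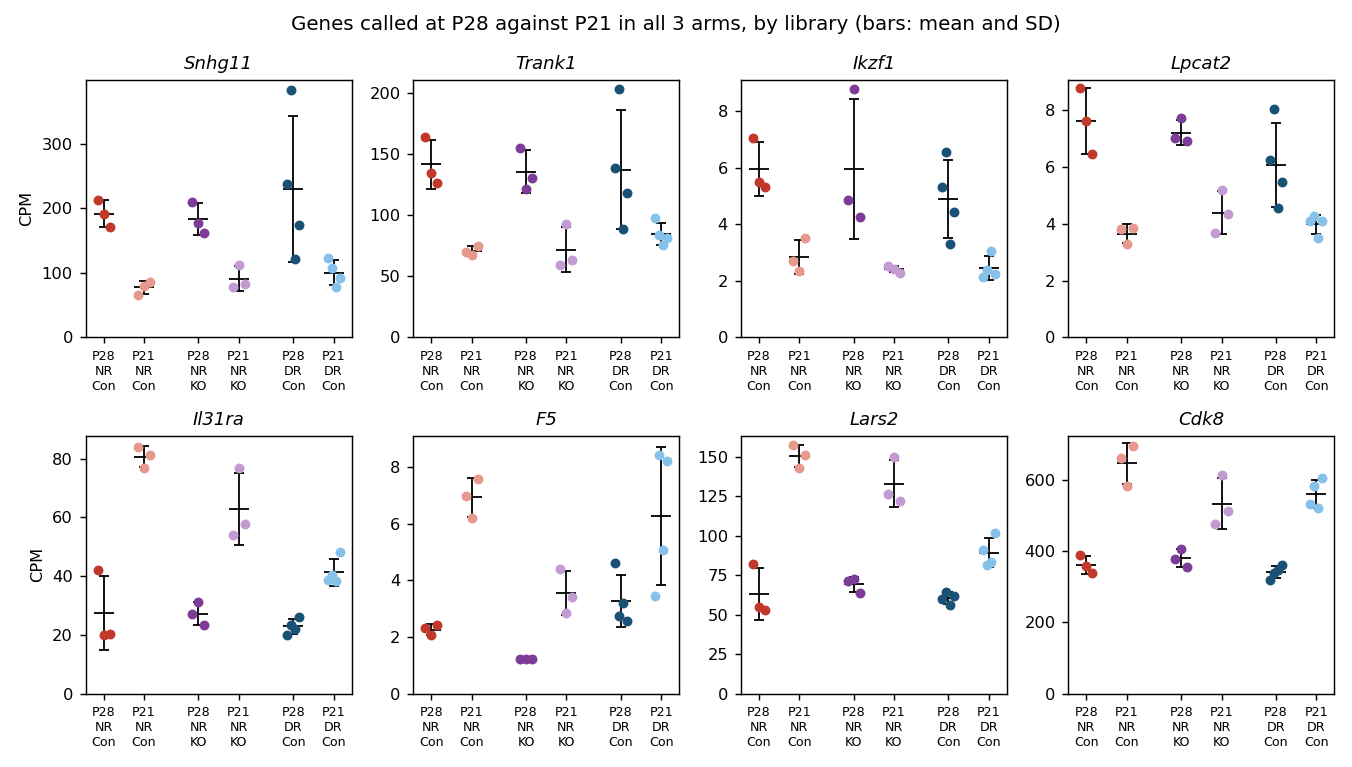
CPM of 8 genes called at P28 against P21 in all 3 arms, by library, with the mean and SD as bars; P28 stands left of P21 in each pair (NR GR-Con and NR GR-KO, n = 3 each; DR GR-Con, n = 4 each). In NR GR-Con nuclei Snhg11, Trank1, Ikzf1 and Lpcat2 are higher at P28, and Il31ra, F5, Lars2 and Cdk8 lower, with no overlap of the replicates.

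Among the genes that fell, Il31ra, a subunit of the interleukin-31 receptor, at chr13:112521931-112580732, measured 42.1, 20.0 and 20.2 CPM at P28, against 84, 76.9 and 81.2 CPM at P21. For Il31ra the log2 fold change was -1.55 ± 0.21 (edgeR adjusted p = 5.51e-05). F5, coagulation factor V, measured 2.33, 2.06 and 2.42 CPM at P28, against 7.0, 6.21 and 7.59 CPM at P21. For F5 the log2 fold change was -1.61 ± 0.26 (edgeR adjusted p = 0.000486). In P14, P21 and P28 libraries the mean of Il31ra was 36 ± 5.15, 80.7 ± 3.56 and 27.4 ± 12.7 CPM (SD, n = 3 each), and that of F5 4.04 ± 0.69, 6.93 ± 0.691 and 2.27 ± 0.188 CPM, so both stood highest at P21, the age that both steps share. Il31ra also fell in the dark (log2 fold change -0.85 ± 0.18, edgeR adjusted p = 0.0112), as did F5 (-0.94 ± 0.22, edgeR adjusted p = 0.0152), and both fell in GR-KO nuclei, with -1.2 and -1.54. Stab2, a scavenger receptor that binds hyaluronan, measured 2.88, 2.11 and 2.3 CPM at P28, against 4.79, 6.54 and 9.35 CPM at P21 (log2 fold change -1.51 ± 0.21, edgeR adjusted p = 6.08e-05), and it was not called in the dark (log2 fold change -0.11 ± 0.17, edgeR adjusted p = 0.742).

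Other genes among those that fell most have varied roles. Pdgfd, a growth factor of the platelet-derived family, measured 68.6, 95 and 84.2 CPM at P28, against 146, 142 and 166 CPM at P21. For Pdgfd the log2 fold change was -0.88 ± 0.20 (edgeR adjusted p = 0.0164). Ccdc3, a secreted protein, measured 10.7, 10.8 and 12 CPM at P28, against 20.8, 28 and 19.8 CPM at P21. For Ccdc3 the log2 fold change was -1.03 ± 0.20 (edgeR adjusted p = 0.00331). Tph2, the rate-limiting enzyme of serotonin synthesis in neurons, gave low counts, 3.79, 2.83 and 3.47 CPM at P28, against 5.86, 9.32 and 7.3 CPM at P21. For Tph2 the log2 fold change was -1.15 ± 0.21 (edgeR adjusted p = 0.00198). Prune2 measured 95.7, 79.3 and 98.4 CPM at P28, against 163, 173 and 155 CPM at P21. For Prune2 the log2 fold change was -0.84 ± 0.15 (edgeR adjusted p = 0.001). Cmya5, best known from muscle, measured 96.4, 82.6 and 104 CPM at P28, against 180.0, 173 and 165 CPM at P21. For Cmya5 the log2 fold change was -0.87 ± 0.16 (edgeR adjusted p = 0.00262). Ccnd3, a D-type cyclin, measured 66.3, 81.8 and 87.2 CPM at P28, against 134, 147 and 141 CPM at P21. For Ccnd3 the log2 fold change was -0.84 ± 0.23 (edgeR adjusted p = 0.0394). Ccnd3 was not called with any single one of the 6 libraries left out. Spsb1, an adaptor of a ubiquitin ligase, measured 61.8, 33 and 54.7 CPM at P28, against 81.1, 100.0 and 93.5 CPM at P21. For Spsb1 the log2 fold change was -0.88 ± 0.22 (edgeR adjusted p = 0.0279). The noncoding A330076C08Rik measured 7.97, 4.54 and 9.03 CPM at P28, against 22, 14.1 and 27.3 CPM at P21. For A330076C08Rik the log2 fold change was -1.56 ± 0.37 (edgeR adjusted p = 0.0192). Camk4 and Cacng4 are further members of the 22 genes that fell in the light and in the dark; both were named after their values were seen, with log2 fold changes of -0.60 and -0.63 under NR and -0.56 and -0.47 under DR. Camk4 was not called without P21 replicate 1 (-0.60), P21 replicate 2 (-0.56), P21 replicate 3 (-0.63), P28 replicate 2 (-0.59) or P28 replicate 3 (-0.51). Cacng4 was not called without P21 replicate 2 (-0.58). Pdgfd was not called without P28 replicate 1 (-0.76). The call on Spsb1 was lost without P21 replicate 1 (-0.96), P21 replicate 2 (-0.81), P21 replicate 3 (-0.86) or P28 replicate 2 (-0.65). A330076C08Rik was not called without P21 replicate 1 (-1.54), P21 replicate 3 (-1.32) or P28 replicate 2 (-1.32).

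Several genes of the Notch and BMP pathways were higher at P28 than at P21 in light-reared GR-Con nuclei: Hes5, Hes1, Dll1, Id1 and Id3. Notch receptors, cleaved after contact with ligands such as Delta-like 1, release a fragment that acts with the DNA-binding protein RBPJ on genes of the HES family; BMP signals act through SMAD proteins on the ID genes, whose products block bHLH factors. Of 29 tested genes of a list of Notch, Hedgehog, Wnt and BMP components, 5 were called higher and 0 lower, against 1.4% and 0.965% of all genes, with a median log2 fold change of 0.19 against 0.026 over all genes. Of these 29 genes 18 had a log2 fold change above 0 and 11 below. In the 15 tested genes of an immature glia list, which shares Hes5 and Id3 with it, 3 were called higher and 0 lower (median 0.31).

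Hes5, a bHLH repressor, measured 28.5, 36.3 and 33.2 CPM at P28, against 16.9, 13.3 and 16.7 CPM at P21. For Hes5 the log2 fold change was 1.06 ± 0.17 (edgeR adjusted p = 0.000486). Hes1, a second repressor of that family, measured 12.1, 17.2 and 12 CPM at P28, against 6.4, 7.96 and 7.72 CPM at P21. For Hes1 the log2 fold change was 0.90 ± 0.14 (edgeR adjusted p = 0.000207). Both stayed called with each of the 6 libraries left out and after thinning. The ligand Dll1 measured 3.84, 3.68 and 4.23 CPM at P28, against 2.51, 1.42 and 2.18 CPM at P21. For Dll1 the log2 fold change was 0.94 ± 0.23 (edgeR adjusted p = 0.0195). Lfng, a glycosyltransferase that modifies Notch receptors, measured 87.5, 72 and 90.3 CPM at P28, against 50.6, 53 and 62.4 CPM at P21. For Lfng the log2 fold change was 0.59 ± 0.13 (edgeR adjusted p = 0.0105). Nrarp, a feedback inhibitor of the Notch complex, measured 28.5, 31.3 and 23.5 CPM at P28, against 22.9, 15.9 and 19.8 CPM at P21. For Nrarp the log2 fold change was 0.51 ± 0.14 (edgeR adjusted p = 0.0372). The receptors Notch1 and Notch2 were not called, with log2 fold changes of 0.37 and 0.088. Of the ID genes, Id1 measured 8.45, 8.28 and 7.37 CPM at P28, against 3.83, 2.89 and 6.21 CPM at P21. For Id1 the log2 fold change was 0.88 ± 0.20 (edgeR adjusted p = 0.0126). Id3 measured 33.5, 36.2 and 31 CPM at P28, against 22.3, 22.7 and 26.8 CPM at P21. For Id3 the log2 fold change was 0.48 ± 0.10 (edgeR adjusted p = 0.00782). Dll1 was not called without P21 replicate 2 (0.74) or P28 replicate 3 (0.88). Lfng was not called without P21 replicate 1 (0.52) or P21 replicate 2 (0.55). Nrarp was not called without P21 replicate 2 (0.38), P21 replicate 3 (0.52), P28 replicate 1 (0.49) or P28 replicate 2 (0.42). The call on Id1 was lost without P21 replicate 1 (0.79) or P21 replicate 2 (0.65). Id3 was not called without P21 replicate 1 (0.43), P21 replicate 2 (0.44) or P28 replicate 2 (0.43).

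None of these genes was called in the dark: the log2 fold change of P28 over P21 was -0.026 for Hes5, 0.098 for Hes1, -0.053 for Dll1, 0.003 for Lfng, -0.22 for Id1 and -0.23 for Id3. The difference between the steps, light minus dark, was called for Hes5 (1.09 ± 0.22, edgeR adjusted p = 0.041), Nrarp (0.88 ± 0.18, edgeR adjusted p = 0.041) and Id3 (0.71 ± 0.13, edgeR adjusted p = 0.0252), and was 0.80 for Hes1 (edgeR adjusted p = 0.0515). For Hes5 this difference was not called without P21 NR replicate 1 (1.15), P21 NR replicate 2 (0.99), P28 NR replicate 2 (1.0), P28 NR replicate 3 (1.07) or P21 DR replicate 2 (1.04), and for Nrarp without P21 NR replicate 2 (0.76), P28 NR replicate 1 (0.86) or P28 NR replicate 2 (0.78). For Id3 it was not called without P21 NR replicate 1 (0.67), P21 NR replicate 2 (0.68) or P28 NR replicate 2 (0.65). The levels show where the difference lay. Hes5 averaged 32.7 ± 3.91 CPM at P28 and 15.7 ± 2.04 at P21 in the light (SD, n = 3 each), 29.6 ± 5.89 and 30.2 ± 7.23 in the dark (n = 4 each), and 27.9 ± 1.3 and 23.3 ± 2.28 in GR-KO nuclei (n = 3 each): the P21 light-reared GR-Con libraries were the low ones. The same was so of Id3, at 33.5 ± 2.58 and 23.9 ± 2.5 CPM in the light and 32 ± 1.14 and 37.5 ± 3.49 in the dark. Hes1 stood apart from this in that its P28 light-reared libraries were the high ones, with 13.8 ± 2.97 and 7.36 ± 0.836 CPM in the light and 9.77 ± 0.696 and 9.13 ± 0.877 in the dark. Set against the P21 libraries of the dark in place of those of the light, P28 NR GR-Con was still higher in Hes1 (log2 fold change 0.59) but not in Hes5 (0.12). The log2 fold change in that setting was 0.19 for Dll1, 0.23 for Lfng, 0.21 for Nrarp, 0.097 for Id1 and -0.16 for Id3.

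**Figure D3:**
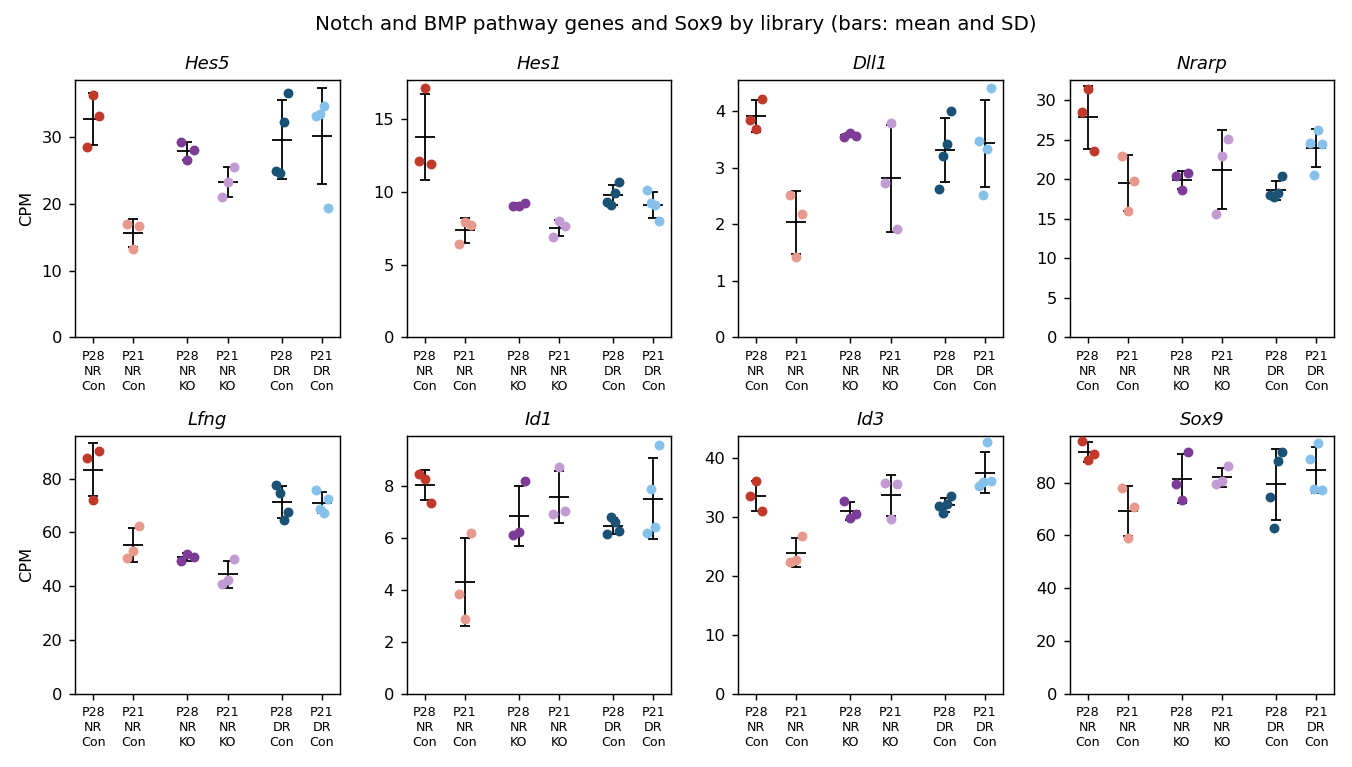
CPM of 7 Notch and BMP pathway genes and of Sox9 by library, with the mean and SD as bars; P28 stands left of P21 in each pair (NR GR-Con and NR GR-KO, n = 3 each; DR GR-Con, n = 4 each). In NR GR-Con nuclei Hes5 lies at 28.5 to 36.3 CPM at P28 and 13.3 to 16.9 CPM at P21, whereas the dark-reared libraries of P28 and P21 overlap.

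The promoters of these genes were read for the letters bound by RBPJ, since Hes5 and Hes1 are its best-known targets. In the 250 bases before the start, GTGGGAA, on either strand, stood in 738 of 13435 promoters of tested genes (5.49%), in 16 of 188 promoters of genes called higher (8.51%) and in 7 of 124 of genes called lower (5.65%), which is a description and not a test. Promoters of Hes5, Lfng, Nrarp, Dll1 and Id3 were in the table and those of Hes1 and Id1 were not. Hes5 held 2 matches, 226 and 83 bases before the start, and Lfng held 1, 109 bases before it; in Nrarp, Id3 and both windows of Dll1 these letters were not found. The 2 promoters with a match are printed 5′ to 3′ on the strand of the gene (RefSeq, GRCm38.p6), with the match or its complement TTCCCAC in capitals.
Hes5, chr4:154960673-154960922, plus strand: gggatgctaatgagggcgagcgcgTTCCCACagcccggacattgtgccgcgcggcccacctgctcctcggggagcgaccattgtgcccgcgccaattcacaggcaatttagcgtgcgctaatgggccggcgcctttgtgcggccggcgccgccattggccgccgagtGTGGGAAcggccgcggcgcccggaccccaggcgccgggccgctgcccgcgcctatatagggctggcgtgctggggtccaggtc
Lfng, chr5:140607091-140607340, plus strand: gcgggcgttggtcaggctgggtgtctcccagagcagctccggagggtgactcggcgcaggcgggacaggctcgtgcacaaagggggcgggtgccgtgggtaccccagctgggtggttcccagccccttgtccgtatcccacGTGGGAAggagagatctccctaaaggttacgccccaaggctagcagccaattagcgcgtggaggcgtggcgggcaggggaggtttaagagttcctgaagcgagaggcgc

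Other signalling genes rose with them. Zfp36l2, an RNA-binding protein that destabilises messenger RNAs, measured 59, 76.7 and 60.8 CPM at P28, against 36.2, 30.4 and 42.6 CPM at P21. For Zfp36l2 the log2 fold change was 0.84 ± 0.13 (edgeR adjusted p = 0.000177). Tob1, an antiproliferative partner of the deadenylase complex, measured 47.5, 46.7 and 37.3 CPM at P28, against 25.7, 28.9 and 26.3 CPM at P21. For Tob1 the log2 fold change was 0.70 ± 0.11 (edgeR adjusted p = 0.000207). Both rises differed from the dark, by 1.01 ± 0.17, edgeR adjusted p = 0.0051 for Zfp36l2 and by 0.72 ± 0.14, edgeR adjusted p = 0.0259 for Tob1. The difference for Zfp36l2 was not called without P21 NR replicate 2 (0.90). That for Tob1 was not called without P21 NR replicate 1 (0.69), P21 NR replicate 2 (0.77), P28 NR replicate 1 (0.65) or P28 NR replicate 2 (0.67). Inhbb, the beta B subunit of activin and inhibin, measured 11.2, 15.5 and 9.24 CPM at P28, against 6.52, 5.89 and 6.08 CPM at P21. For Inhbb the log2 fold change was 0.96 ± 0.17 (edgeR adjusted p = 0.00099). The receptor Fzd7, the scaffold Dvl1, both of the Wnt pathway, and Spry2, an inhibitor of receptor tyrosine kinase signals, had log2 fold changes of 0.69, 0.46 and 0.55. Apc, which marks beta-catenin for destruction, fell, with 836, 822 and 785 CPM at P28, against 1248, 1241 and 1219 CPM at P21 (log2 fold change -0.60 ± 0.091, edgeR adjusted p = 0.000193), and fell also in the dark (-0.53 ± 0.079, edgeR adjusted p = 0.00037). Rspo3, an enhancer of Wnt signals, measured 20.8, 21.8 and 17.5 CPM at P28, against 29.1, 27.6 and 28.9 CPM at P21. For Rspo3 the log2 fold change was -0.51 ± 0.14 (edgeR adjusted p = 0.0463). Rspo3 was not called with any single library left out. Fzd7 was not called without P21 replicate 1 (0.64), P21 replicate 2 (0.67) or P28 replicate 2 (0.57). Dvl1 was not called without P21 replicate 1 (0.41), P21 replicate 2 (0.37) or P28 replicate 2 (0.41). Spry2 was not called without P21 replicate 1 (0.49), P21 replicate 2 (0.49) or P28 replicate 2 (0.39). Except for Zfp36l2, this paragraph names genes after their values were seen.

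Genes of the extracellular matrix moved in both directions. Of 8 genes that mark the immature matrix of the study, 2 were called higher and 1 lower (median log2 fold change -0.038). Vcan, the proteoglycan versican, measured 70.6, 80.2 and 75.8 CPM at P28, against 57.4, 55.2 and 50.9 CPM at P21 (log2 fold change 0.47 ± 0.086, edgeR adjusted p = 0.00184), a rise that stayed with every library left out and was also called in the dark (0.40 ± 0.073, edgeR adjusted p = 0.0039). Mmp14, a membrane-bound metalloprotease, measured 24.6, 27.5 and 23.7 CPM at P28, against 17.5, 16.2 and 18.5 CPM at P21 (log2 fold change 0.54 ± 0.11, edgeR adjusted p = 0.00754), whereas Adamts5, a protease that cleaves versican and aggrecan, measured 10.9, 8.48 and 9.36 CPM at P28, against 12.9, 12.3 and 15.3 CPM at P21. For Adamts5 the log2 fold change was -0.50 ± 0.13 (edgeR adjusted p = 0.0342). Tenascin C, the best-known of the other 5, was not called. Adamts1, another versican-cleaving protease, measured 11.9, 17.2 and 13.2 CPM at P28, against 5.62, 5.89 and 8.81 CPM at P21. For Adamts1 the log2 fold change was 1.04 ± 0.24 (edgeR adjusted p = 0.0126). Between P14 and P21 Vcan, Mmp14 and Adamts5 had fallen (-0.79, -1.35 and -0.91 on the log2 scale), so at P28 the first 2 stood between their P21 and P14 means.

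Of 18 basement membrane and collagen genes, 3 were called higher and 0 lower, with a median of -0.015. Nid2, the linker protein nidogen 2, measured 23.2, 25.7 and 28.2 CPM at P28, against 18.1, 17.2 and 17.6 CPM at P21 (log2 fold change 0.54 ± 0.10, edgeR adjusted p = 0.0027) and rose in the dark too (0.37 ± 0.086, edgeR adjusted p = 0.0152). Lamb2, a laminin chain, had a log2 fold change of 0.35 ± 0.098, edgeR adjusted p = 0.0442, and Col11a1, a fibrillar collagen chain, one of 0.38 ± 0.10, edgeR adjusted p = 0.0415. Col11a2 and Col16a1, named after their values were seen, rose in light and dark, by 0.57 and 0.62 under NR and by 0.46 and 0.66 under DR. Of the 4 genes that mark the mature matrix, Scrg1, a secreted protein, fell, with 32.9, 25.4 and 42.9 CPM at P28, against 53.4, 61 and 52.2 CPM at P21 (log2 fold change -0.72 ± 0.18, edgeR adjusted p = 0.0285), and 0 rose. Sparc, a matricellular protein that opposes the synapse-forming action of hevin, was the one call among 20 synapse-regulating genes: it measured 51.4, 43 and 47 CPM at P28, against 72.1, 77.6 and 88.6 CPM at P21 (log2 fold change -0.75 ± 0.17, edgeR adjusted p = 0.0126), and it fell in the dark too (-0.78 ± 0.15, edgeR adjusted p = 0.00443). Spon1, the adhesion protein F-spondin, measured 75.6, 82.7 and 81.1 CPM at P28, against 113, 122 and 131 CPM at P21 (log2 fold change -0.62 ± 0.076, edgeR adjusted p = 7.15e-06); it was named after its values were seen.

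Several of these calls were lost when 1 library was left out, some of them with nearly the same fold change. Mmp14 was not called without P21 replicate 2 (0.48) or P28 replicate 2 (0.48). Sparc was not called without P21 replicate 3 (-0.67) or P28 replicate 2 (-0.69). Scrg1 was not called without P21 replicate 1 (-0.75), P21 replicate 2 (-0.65), P28 replicate 1 (-0.70) or P28 replicate 2 (-0.55). Adamts1 was not called without P21 replicate 1 (0.92), P21 replicate 2 (0.94) or P28 replicate 2 (0.88). Adamts5 was not called without P21 replicate 1 (-0.54), P21 replicate 3 (-0.40), P28 replicate 2 (-0.42) or P28 replicate 3 (-0.49). Col11a1 was not called without P21 replicate 1 (0.38), P21 replicate 2 (0.31), P28 replicate 1 (0.42), P28 replicate 2 (0.38) or P28 replicate 3 (0.32). Lamb2 was not called without P21 replicate 1 (0.33), P21 replicate 2 (0.30), P28 replicate 1 (0.28) or P28 replicate 3 (0.35). Col16a1 was not called without P21 replicate 1 (0.54), P21 replicate 3 (0.60) or P28 replicate 2 (0.46), and Col11a2 was not called with any single one of the 6 left out. For 3 matrix genes the step differed by genotype, GR-Con minus GR-KO: Mmp14 (0.83 ± 0.16, edgeR adjusted p = 0.0131), Nid2 (0.65 ± 0.14, edgeR adjusted p = 0.0459) and Fbln2, a fibulin named after its values were seen (0.92 ± 0.17, edgeR adjusted p = 0.0131), which measured 16.9, 18.1 and 17.3 CPM at P28, against 11.6, 13.7 and 12.1 CPM at P21 and was not called by age without P21 replicate 1 (0.43), P21 replicate 3 (0.46), P28 replicate 2 (0.46) or P28 replicate 3 (0.48). The difference between genotypes was not called for Mmp14 without P21 replicate 2 (0.78) or P28 replicate 2 (0.77). For Nid2 it was not called without P21 replicate 1 (0.67), P21 replicate 2 (0.63), P21 replicate 3 (0.65), P28 replicate 2 (0.65) or P28 replicate 3 (0.57), and for Fbln2 without P28 replicate 2 (0.89). In GR-KO nuclei the log2 fold changes of P28 over P21 were -0.29 for Mmp14, -0.10 for Nid2 and -0.43 for Fbln2.

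Astrocyte identity genes summed to less at P28 than at P21, without overlap (values above), yet few of them were called. Of 20 identity genes 2 were called higher and 0 lower (median -0.097), and 9 had a log2 fold change above 0. The difference in the sum lay in a pair of abundant genes, taken after their values were seen: Slc1a2, the glutamate transporter GLT-1, and Gpc5, a glypican, summed to 10732, 11593 and 11107 CPM at P28, against 14428, 13478 and 14188 CPM at P21. Neither was called (edgeR adjusted p = 0.246 and 0.71). The other 18 identity genes summed to 8530, 8207 and 8694 CPM at P28, against 8681, 8213 and 8669 CPM at P21. Aqp4, the water channel of astrocyte endfeet, measured 448, 379 and 402 CPM at P28, against 291, 298 and 304 CPM at P21 (log2 fold change 0.46 ± 0.11, edgeR adjusted p = 0.0143), and was the only call among 14 genes of gap junctions and endfeet. Sox9, the glial transcription factor, measured 95.8, 88.4 and 90.9 CPM at P28, against 78.1, 59 and 70.5 CPM at P21 (log2 fold change 0.41 ± 0.12, edgeR adjusted p = 0.0497), close to the threshold, and was called in no fit that left out a library. Aqp4 was not called without P21 replicate 1 (0.44), P21 replicate 2 (0.46) or P28 replicate 1 (0.39). Of 24 astrocyte transcription factors 2 were called higher, Sox9 and Hes5, and 1 lower. Nfix, a nuclear factor I protein that promotes glial maturation, measured 304, 306 and 281 CPM at P28, against 386, 356 and 374 CPM at P21. For Nfix the log2 fold change was -0.33 ± 0.076 (edgeR adjusted p = 0.0164). Nfix was not called without P21 replicate 1 (-0.30) or P28 replicate 3 (-0.30). Among the 5 maturation markers of the study Aldh1a1, a retinaldehyde dehydrogenase, fell, with 91.4, 65.2 and 101 CPM at P28, against 134, 159 and 149 CPM at P21. For Aldh1a1 the log2 fold change was -0.78 ± 0.18 (edgeR adjusted p = 0.0164). Aldh1a1 was not called without P21 replicate 2 (-0.72) or P28 replicate 2 (-0.61). All 5 of those markers had risen between P14 and P21 (6.53% of all genes tested were called higher there), in a comparison that shares the P21 libraries, and the median of the list was 1.07 there against -0.38 between P21 and P28. Etnppl, a phospholyase and one of the 5, measured 102, 70.0 and 135 CPM at P28, against 154, 114 and 132 CPM at P21 and was not called (edgeR adjusted p = 0.615).

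**Figure D4:**
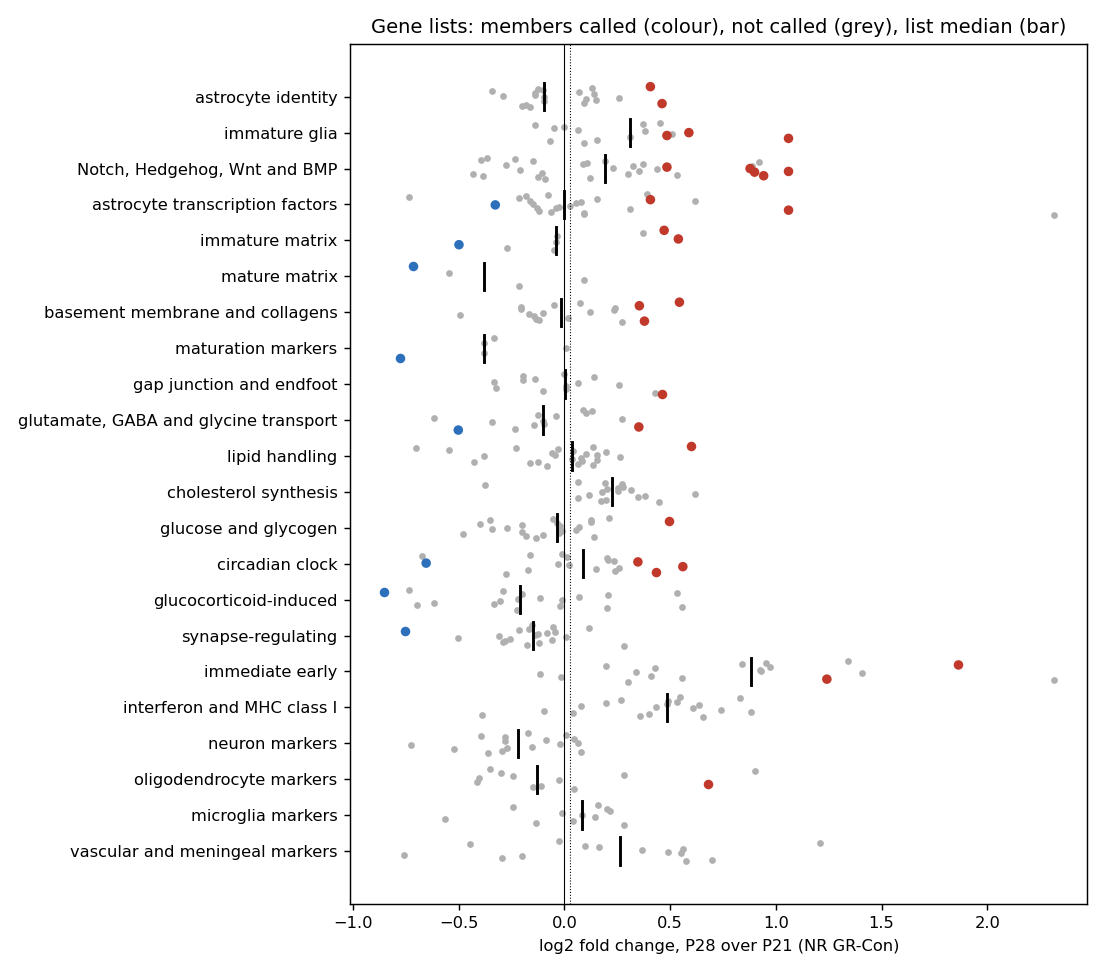
Log2 fold change of P28 over P21 in NR GR-Con nuclei for the members of 22 gene lists, 1 point per gene, in red where called higher, blue where called lower and grey where not called; the bar is the median of the list, the solid line 0 and the dotted line the median of all genes. The immediate early, interferon and immature glia lists have their medians farthest to the right, at 0.88, 0.49 and 0.31.

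Genes of neurotransmitter handling changed singly. Of 14 genes of glutamate, GABA and glycine transport and turnover, 1 was called higher and 1 lower. Abat, the transaminase that degrades GABA, measured 216, 232 and 213 CPM at P28, against 334, 306 and 297 CPM at P21 (log2 fold change -0.50 ± 0.085, edgeR adjusted p = 0.0008), with each library left out still called. Maob, monoamine oxidase B, measured 66.1, 65.1 and 85.8 CPM at P28, against 104, 109 and 100.3 CPM at P21. For Maob the log2 fold change was -0.53 ± 0.13 (edgeR adjusted p = 0.023). Maob was not called without P21 replicate 1 (-0.54), P21 replicate 2 (-0.50), P28 replicate 1 (-0.47) or P28 replicate 2 (-0.46). Slc38a1, a glutamine transporter, measured 125, 121 and 94.7 CPM at P28, against 159, 151 and 154 CPM at P21. For Slc38a1 the log2 fold change was -0.45 ± 0.13 (edgeR adjusted p = 0.0481). Slc38a1 was not called with any single library left out. Gphn, the scaffold gephyrin of inhibitory synapses, fell, with 577, 600.2 and 643 CPM at P28, against 1042, 1028 and 935 CPM at P21. For Gphn the log2 fold change was -0.72 ± 0.12 (edgeR adjusted p = 0.000763). Nrxn2, a presynaptic adhesion molecule, had a log2 fold change of -0.34 and was not called without P21 replicate 3 (-0.30). Maob, Slc38a1, Gphn and Nrxn2 were named after their values were seen. None of 24 neurotransmitter and peptide receptors and of 16 potassium channels and pumps was called by edgeR; Gabrb1 measured 1286, 1722 and 1553 CPM at P28, against 1958, 1806 and 1574 CPM at P21.

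Of 24 genes of a lipid handling list and 23 of a glucose and glycogen list, 1 each was called, Srebf1 and Ppp1r3g. Srebf1, the transcription factor of fatty acid synthesis, measured 86.8, 90.0 and 94.9 CPM at P28, against 55.8, 56.4 and 67.1 CPM at P21 (log2 fold change 0.60 ± 0.11, edgeR adjusted p = 0.00194), and stayed called with each library left out; in the dark it measured 95.5 ± 7.37 CPM at P28 and 95 ± 5.04 at P21 (SD, n = 4 each). Of 18 genes of cholesterol synthesis 0 were called, although 17 of them lay above 0 (median 0.23; smallest edgeR adjusted p = 0.114); Srebf2 measured 237, 238 and 231 CPM at P28, against 218, 218 and 237 CPM at P21 and Msmo1 271, 223 and 207 CPM at P28, against 207, 197 and 206 CPM at P21. Ppp1r3g, which targets protein phosphatase 1 to glycogen, measured 36.5, 38.4 and 39.2 CPM at P28, against 24.3, 23.8 and 32.7 CPM at P21. For Ppp1r3g the log2 fold change was 0.49 ± 0.11 (edgeR adjusted p = 0.0126). Ppp1r3g was not called without P21 replicate 1 (0.42) or P21 replicate 2 (0.41). Ppara, a nuclear receptor of fatty acid oxidation, fell, with 54.2, 47.5 and 64 CPM at P28, against 75.9, 99.2 and 73.3 CPM at P21. For Ppara the log2 fold change was -0.58 ± 0.15 (edgeR adjusted p = 0.0285). Ppara was not called without P21 replicate 1 (-0.65), P21 replicate 2 (-0.44), P28 replicate 1 (-0.57) or P28 replicate 2 (-0.48). Slc7a5 and Slc3a2, both chains of a carrier of large neutral amino acids, rose by 0.78 and 0.74 on the log2 scale; P28 replicate 2 was the highest library in each, with 46.6, 86.2 and 33.6 CPM at P28, against 26.1, 27.8 and 42.5 CPM at P21 for Slc7a5 and 77.3, 117 and 63.1 CPM at P28, against 45.8, 46.7 and 61.5 CPM at P21 for Slc3a2. Slc7a5 was not called without P21 replicate 1 (0.65), P21 replicate 2 (0.68) or P28 replicate 2 (0.32). Slc3a2 was not called without P21 replicate 1 (0.66) or P28 replicate 2 (0.45). Ppara, Slc7a5 and Slc3a2 were named after their values were seen.

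The circadian genes are read against the time of tissue collection, which was a single window of the light cycle. Of 18 clock genes 3 were called higher and 1 lower (median 0.088). Npas2, a partner of BMAL1, measured 241, 253 and 329 CPM at P28, against 399, 435 and 462 CPM at P21. For Npas2 the log2 fold change was -0.65 ± 0.17 (edgeR adjusted p = 0.0261). Dbp, an output of the clock, measured 59.9, 46.9 and 55.9 CPM at P28, against 42.7, 35.6 and 32.2 CPM at P21. For Dbp the log2 fold change was 0.56 ± 0.16 (edgeR adjusted p = 0.0443). Nr1d1, the repressor REV-ERB alpha, measured 82.3, 63.9 and 64 CPM at P28, against 50.1, 57.6 and 57.4 CPM at P21. For Nr1d1 the log2 fold change was 0.35 ± 0.094 (edgeR adjusted p = 0.0378). Bhlhe40, a repressor of clock transcription, measured 88.3, 118 and 82.5 CPM at P28, against 69.9, 60.8 and 82.4 CPM at P21. For Bhlhe40 the log2 fold change was 0.44 ± 0.12 (edgeR adjusted p = 0.0435). Each of the 4 lost its call in several fits with 1 library left out, at times with a similar or larger fold change. Npas2 was not called without P21 replicate 1 (-0.71), P21 replicate 2 (-0.65), P21 replicate 3 (-0.60), P28 replicate 1 (-0.57) or P28 replicate 2 (-0.60). Dbp was not called without P21 replicate 1 (0.67), P21 replicate 2 (0.53), P21 replicate 3 (0.47), P28 replicate 1 (0.48) or P28 replicate 3 (0.53). Nr1d1 was not called without P21 replicate 1 (0.28), P21 replicate 2 (0.37) or P28 replicate 1 (0.22). Bhlhe40 was not called without P21 replicate 1 (0.42), P21 replicate 2 (0.33) or P28 replicate 2 (0.27). Of 18 genes induced by glucocorticoids, 1 was called, Sult1a1, a sulfotransferase, which fell, with 6.72, 5.05 and 8.03 CPM at P28, against 12.1, 10.9 and 12.7 CPM at P21. For Sult1a1 the log2 fold change was -0.86 ± 0.21 (edgeR adjusted p = 0.0193). Sult1a1 was not called without P21 replicate 1 (-0.85), P21 replicate 3 (-0.80), P28 replicate 1 (-0.87) or P28 replicate 2 (-0.69). Of these 18 genes 12 had been called higher at P21 against P14 (6.53% of all genes tested), with the same P21 libraries, and the median of the list was 0.88 there, against -0.21 for P28 against P21.

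Immediate early genes, which stimuli switch on within minutes, varied between the P28 libraries. The 18 tested summed to 913, 1612 and 542 CPM at P28, against 610.4, 574 and 936 CPM at P21, so P28 replicate 2 was the highest and P28 replicate 3 the lowest of the 6. Their median log2 fold change was 0.88, but 2 were called. Npas4, a transcription factor induced by neuronal activity, measured 32.5, 33.9 and 9.72 CPM at P28, against 4.91, 8.17 and 7.76 CPM at P21. For Npas4 the log2 fold change was 1.86 ± 0.41 (edgeR adjusted p = 0.0102). Npas4 was not called without P21 replicate 1 (1.67) or P28 replicate 2 (1.6). Btg2, an antiproliferative gene, measured 31.2, 57.2 and 15.9 CPM at P28, against 18.5, 14.3 and 11.5 CPM at P21. For Btg2 the log2 fold change was 1.24 ± 0.27 (edgeR adjusted p = 0.0101). Btg2 was not called without P21 replicate 3 (1.08) or P28 replicate 2 (0.68). Fos measured 41.3, 101 and 15.3 CPM at P28, against 16.3, 12.7 and 30.1 CPM at P21 and was not called (edgeR adjusted p = 0.0765). Coq10b, a coenzyme Q binding protein, measured 49, 97.7 and 33.2 CPM at P28, against 22.9, 29.7 and 24.9 CPM at P21. For Coq10b the log2 fold change was 1.22 ± 0.24 (edgeR adjusted p = 0.00493). Klf4, a Krüppel-like factor named after its values were seen, measured 4.22, 23.2 and 2.6 CPM at P28, against 2.63, 0.981 and 2.6 CPM at P21. For Klf4 the log2 fold change was 2.26 ± 0.47 (edgeR adjusted p = 0.00649). Coq10b was not called without P28 replicate 2 (0.67). Klf4 was not called without P21 replicate 2 (1.92) or P28 replicate 2 (0.72). Of the 239 genes called higher, 23 had more than 1.5 times as many CPM in P28 replicate 2 as in both other P28 libraries; over all genes tested this held for 3.78%.

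The same library was high in interferon-induced genes. The 19 tested genes of interferon response and antigen presentation summed to 106, 242 and 126 CPM at P28, against 129.8, 104 and 129.7 CPM at P21, and 0 were called by edgeR in this comparison (smallest adjusted p = 0.123; median 0.49). Mx2, an antiviral GTPase, measured 4.9, 22 and 6.95 CPM at P28, against 7.48, 5.34 and 7.55 CPM at P21, and Ddx60, a helicase, 4.97, 31.4 and 8.52 CPM at P28, against 15, 7.08 and 10.4 CPM at P21. In GR-KO nuclei 13 of the 19 genes were called lower at P28 than at P21, against 1.15% of all genes tested there. The step differed by genotype, GR-Con minus GR-KO, for Ifit1 (3.54 ± 0.67, edgeR adjusted p = 0.0131), Ddx60 (2.97 ± 0.62, edgeR adjusted p = 0.0323), Mx2 (2.7 ± 0.49, edgeR adjusted p = 0.0107), Parp14 (2.24 ± 0.39, edgeR adjusted p = 0.01), Usp18 (2.36 ± 0.50, edgeR adjusted p = 0.0381) and Ifit3 (2.27 ± 0.48, edgeR adjusted p = 0.0385). None of these 6 differences was called without P28 NR GR-Con replicate 2, where they were 2.22, 1.82, 1.77, 1.54, 1.57 and 1.86. GR-KO libraries were not left out in turn, so how far the differences rest on single GR-KO libraries was not tested. Without P21 NR GR-Con replicate 2, the differences for Mx2 and Parp14 were called and those for Ifit1, Ddx60, Usp18 and Ifit3 were not. Those for Usp18 (2.24) and Ifit3 (2.39) were also not called without P21 NR GR-Con replicate 1. Without P21 NR GR-Con replicate 3 those for Ddx60 (2.94) and Ifit3 (2.12) were not. Ifit1 lies whole within another annotated gene, and reads of the 2 cannot be told apart since whether counting used the strand is unknown. The interferon-stimulated response element (ISRE), searched on either strand, stood in 344 of 13435 promoters (2.56%) with 2 matches each in those of Ifit3 and Ddx60, printed with the matches in capitals.
Ifit3, chr19:34583279-34583528, plus strand: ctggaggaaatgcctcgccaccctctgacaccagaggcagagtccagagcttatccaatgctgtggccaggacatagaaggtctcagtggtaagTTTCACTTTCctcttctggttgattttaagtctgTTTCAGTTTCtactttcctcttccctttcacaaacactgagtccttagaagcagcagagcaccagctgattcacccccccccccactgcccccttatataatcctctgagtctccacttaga
Ddx60, chr8:61927837-61928086, plus strand: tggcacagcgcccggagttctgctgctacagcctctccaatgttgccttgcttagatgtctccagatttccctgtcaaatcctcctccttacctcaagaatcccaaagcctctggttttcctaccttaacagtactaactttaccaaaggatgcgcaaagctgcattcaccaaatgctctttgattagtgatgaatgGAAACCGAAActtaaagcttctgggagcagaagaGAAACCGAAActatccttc

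Short RNAs and repeats made up some of the largest changes. Ubb-ps, a processed copy of the ubiquitin gene Ubb, measured 17, 15.8 and 13.6 CPM at P28, against 3.47, 3.16 and 2.43 CPM at P21 (log2 fold change 2.37 ± 0.28, edgeR adjusted p = 7.15e-06); reads of such a copy can also come from its parent, so its value is uncertain. It was low also in the GR-KO libraries of P21, at 2.15 ± 0.97 CPM, and not low in the dark-reared ones, at 14.5 ± 1.21 CPM, that is, low in the 6 shallow libraries of P21. The small RNAs Scarna2, which guides modification of spliceosomal RNA, and Rnu3a, which acts in ribosomal RNA processing, measured 9.22, 8.71 and 9.9 CPM at P28, against 5.33, 2.78 and 4.7 CPM at P21 (log2 fold change 1.12 ± 0.22, edgeR adjusted p = 0.00512) and 6.67, 6.88 and 6.31 CPM at P28, against 3.05, 1.85 and 4.65 CPM at P21. For Rnu3a the log2 fold change was 1.03 ± 0.24 (edgeR adjusted p = 0.0179). In the dark neither was called (-0.47 and -0.13), and in GR-KO nuclei both were called higher (0.99 ± 0.22, edgeR adjusted p = 0.0105 for Scarna2 and 0.85 ± 0.23, edgeR adjusted p = 0.0374 for Rnu3a). Scarna2 was not called without P21 replicate 2 (0.89). Rnu3a was not called without P21 replicate 1 (0.99), P21 replicate 2 (0.76) or P28 replicate 2 (1.0).

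Rn45s, the precursor of ribosomal RNA, took 2.05 to 2.30% of counts at P28 and 0.835 to 1.74% at P21 (log2 fold change 0.71 ± 0.24, edgeR adjusted p = 0.0933). Lars2, mitochondrial leucyl-tRNA synthetase, a gene at which reads of ribosomal RNA are known to be placed, moved the other way, with 82.3, 54.8 and 52.8 CPM at P28, against 157, 143 and 151 CPM at P21 (log2 fold change -1.25 ± 0.13, edgeR adjusted p = 5.66e-07), and so did Mir6236, with 6.99, 3.31 and 5.22 CPM at P28, against 14.1, 9.32 and 12 CPM at P21 (log2 fold change -1.18 ± 0.26, edgeR adjusted p = 0.00942), though not without P21 replicate 1 (-1.05) or P28 replicate 2 (-0.94). Cdk8, a kinase of the Mediator complex, measured 389.5, 358 and 338 CPM at P28, against 662, 584 and 696 CPM at P21. For Cdk8 the log2 fold change was -0.84 ± 0.10 (edgeR adjusted p = 7.15e-06). Camk1d, a calcium-dependent kinase, measured 232, 223 and 197 CPM at P28, against 431, 399 and 437 CPM at P21. For Camk1d the log2 fold change was -0.96 ± 0.13 (edgeR adjusted p = 5.91e-05). Lars2 and Cdk8 fell in all 3 arms, and Camk1d fell in GR-KO nuclei (-0.49 ± 0.13, edgeR adjusted p = 0.0347) but was not called in the dark, where it measured 225 ± 25.7 and 235 ± 15.4 CPM at P28 and P21 (SD, n = 4 each; difference between light and dark -0.90 ± 0.18, edgeR adjusted p = 0.0259). That difference was not called without P21 NR replicate 1 (-0.88), P21 NR replicate 2 (-0.93), P28 NR replicate 2 (-0.92) or P28 NR replicate 3 (-0.83). With the share of Rn45s as a covariate, chosen after the data were seen, 43 genes were called in all, 20 higher and 23 lower, all of them among the 404, and Lars2, Cdk8, Camk1d, Il31ra, F5, Hes1, Trank1, Lpcat2 and Inpp5d kept their calls while Hes5 and Vcan did not. The part of ribosomal RNA in these values was not tested.

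A further set, of genes known from white blood cell lineages, was put together after their values were seen, so the set as such has no test. The adjusted p-values given here are those of the single genes in the comparison from which they were picked. Which cells their RNA came from was not tested. Inpp5d, the phosphatase SHIP1, measured 11.7, 12.8 and 11.3 CPM at P28, against 5.62, 6.32 and 6.63 CPM at P21 (log2 fold change 0.94 ± 0.15, edgeR adjusted p = 0.000213), with each library left out still called. Fli1, an ETS factor, measured 6.43, 9.56 and 6.13 CPM at P28, against 2.69, 3.65 and 4.11 CPM at P21. For Fli1 the log2 fold change was 1.07 ± 0.29 (edgeR adjusted p = 0.0419). Csf3r, the receptor of granulocyte colony-stimulating factor, measured 2.28, 3.08 and 1.87 CPM at P28, against 0.957, 1.04 and 0.797 CPM at P21. For Csf3r the log2 fold change was 1.38 ± 0.29 (edgeR adjusted p = 0.00729). Dok3 and Pik3ap1, adaptors of immune receptors, and Skap1, an adaptor of T cells, had log2 fold changes of 1.37, 1.03 and 1.37. Beside them, 0 of 11 microglia markers were called by edgeR in either direction (median 0.082). Among them Csf1r measured 25, 21.5 and 18.1 CPM at P28, against 19.1, 17.7 and 21.8 CPM at P21. With the microglia score of each library as a covariate 403 of the 404 calls were kept in direction and threshold among 1080 calls in all. Fli1 was not called without P21 replicate 1 (0.92), P21 replicate 2 (1.09), P21 replicate 3 (1.21), P28 replicate 1 (1.16) or P28 replicate 2 (0.84). Csf3r was not called without P28 replicate 2 (1.17). Pik3ap1 was not called without P21 replicate 1 (1.0), P21 replicate 2 (1.13), P21 replicate 3 (0.95), P28 replicate 1 (1.05) or P28 replicate 2 (0.93); Dok3 was not called without P21 replicate 1 (1.05), P21 replicate 2 (1.45), P28 replicate 1 (1.37), P28 replicate 2 (1.36) or P28 replicate 3 (1.38), and Skap1 was not called with any single one of the 6 left out.

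Among other cell types, Gjc3, a connexin of myelinating glia, was the one call in 12 oligodendrocyte markers, with 11.9, 8.19 and 6.31 CPM at P28, against 4.79, 5.83 and 5.83 CPM at P21. For Gjc3 the log2 fold change was 0.68 ± 0.19 (edgeR adjusted p = 0.0481). Gjc3 was not called without P21 replicate 1 (0.59), P21 replicate 2 (0.72), P21 replicate 3 (0.73), P28 replicate 1 (0.40) or P28 replicate 2 (0.73); their sum was 888 to 1271 CPM at P28 and 1114 to 1348 CPM at P21. No vascular, ependymal or oligodendrocyte precursor marker was called. With neuron and oligodendrocyte scores as covariates 384 of the 404 calls were kept among 1560. Lists of proliferation, heat shock and unfolded protein, p53 target and ribosomal protein genes had 1 call each, Ccnd3 (lower), Atf4 (higher, 44.9, 55.8 and 42.9 CPM at P28, against 29.7, 31.3 and 37.7 CPM at P21), Zmat3 (lower, -0.33 ± 0.086, edgeR adjusted p = 0.0314) and Rpl5 (higher, 0.42 ± 0.092, edgeR adjusted p = 0.0114). Zmat3 was not called with any single library left out, Atf4 was not called without P21 replicate 1 (0.46), P21 replicate 2 (0.50) or P28 replicate 2 (0.41). Rpl5 was not called without P21 replicate 2 (0.39) or P28 replicate 1 (0.36). The lists of the respiratory chain, axon guidance, phosphodiesterases, thyroid hormone response and reactive genes had none, by edgeR; Gfap, the filament protein of reactive astrocytes, measured 285, 344 and 383 CPM at P28, against 257, 300.5 and 385 CPM at P21. For Gfap the log2 fold change was 0.10 ± 0.12 (edgeR adjusted p = 0.718).

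Genes that fell were longer than genes that rose. The median gene length was 12.7 kb for genes called higher (quartiles 6.46 and 29.9 kb), 72.1 kb for genes called lower (36.2 and 126 kb) and 24.1 kb for all genes tested (10.0 and 58.9 kb). In genes under 10 kb 2.26% were called higher and 0.188% lower; in genes over 100 kb 0.574% were called higher and 2.63% lower. The median log2 fold change went with length, at 0.091 under 10 kb, 0.063 at 10 to 30 kb, -0.013 at 30 to 100 kb and -0.059 over 100 kb. In the other arms it was highest in the longest genes: in the same order of bins it was -0.017, -0.034, 0.011 and 0.11 in GR-KO nuclei and -0.069, -0.0064, 0.015 and 0.11 in the dark. Counts were taken over whole gene bodies, introns included. With the slope of expression on gene length of each library as a covariate, 386 of the 404 calls were kept among 1377.

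**Figure D5:**
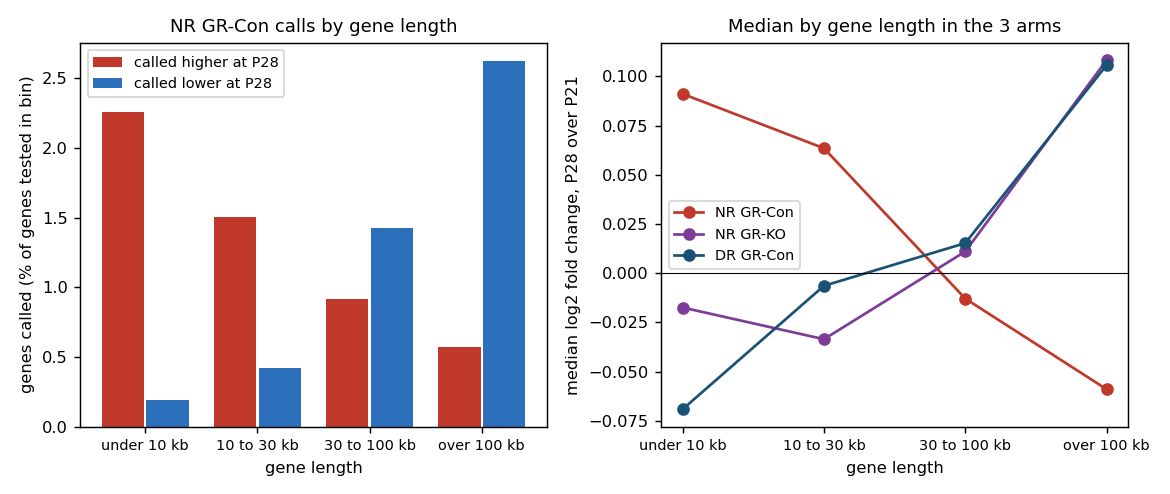
Left, genes called higher (red) or lower (blue) at P28 against P21 in NR GR-Con nuclei as a percentage of the genes tested in each bin of gene length. Right, median log2 fold change of P28 over P21 by bin in NR GR-Con, NR GR-KO and DR GR-Con nuclei; in NR GR-Con it is 0.091 in the shortest genes and -0.059 in the longest, and it is highest for the longest genes in the other 2.

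The same week was measured in the dark and without the receptor, in libraries that share none with the 6 used here. The P21 GR-KO libraries are among the shallow NR libraries of P21, so in that arm too age cannot be told apart from depth. In the dark 669 genes were called (3.91%), and 266 without P21 replicate 2 of that arm; in GR-KO nuclei 469 were (2.74%). Of the 239 genes that rose in light-reared GR-Con nuclei, 183 had a positive log2 fold change in the dark, 76.6% against 51.0% of all genes, and 28 were called higher there (background 2.2%), which is 11.7% of the 239 and 7.43% of the 377 called higher in the dark. Of the 165 that fell, 136 were negative in the dark, 82.4% against 48.98%, and 22 were called lower (background 1.71%). The median log2 fold change of the 239 was 0.58 in the light and 0.16 in the dark, and that of the 165 was -0.55 and -0.13. In GR-KO nuclei 183 of the 239 were positive and 41 called higher (background 1.6%), and 140 of the 165 were negative and 16 called lower (background 1.15%); 1 gene was called in the opposite direction there and 0 in the dark. A difference of sizes is built into these counts, since the genes were chosen by their calls in light-reared GR-Con nuclei.

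The difference between light and dark in the P28 over P21 step was called for 11 genes (0.0643%). Light minus dark, it was positive for 9 of these genes (0.0526%) and negative for 2 (0.0117%). They included, besides Ubb-ps, Scarna2, Hes5, Zfp36l2, Tob1, Nrarp, Id3, Stab2 and Camk1d, the zinc finger gene Zfp280b (0.90 ± 0.19, edgeR adjusted p = 0.0418), which measured 10.8, 11.4 and 11.1 CPM at P28, against 7.0, 6.97 and 8.93 CPM at P21. All 11 were called within light-reared nuclei and none of them within dark-reared ones. In 10 of the 11 the P21 light-reared GR-Con mean was the lowest or highest of the 4 groups. The step differed between GR-Con and GR-KO for 24 genes (0.14%). The difference, GR-Con minus GR-KO, was positive for 22 (0.129%) and negative for 2 (0.0117%). A positive difference can come from a fall in GR-KO or a rise in GR-Con. Ddx60 had a log2 fold change of 0.47 in GR-Con and -2.5 in GR-KO, and Nid2 0.54 and -0.10. For Stab2, with a negative difference, the values were -1.51 and 0.23.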

How the data were processed

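Nuclear RNA of sorted V1 astrocyte nuclei (80000 nuclei and 10 ng of RNA per library) was sequenced by the authors as stranded total RNA, paired-end. The deposited values are raw counts per gene, which the authors made by alignment to mm10 with STAR and counting over gene bodies, exons and introns together, with featureCounts of Subread; whether the strand was used is not given in the sources, so overlapping genes cannot be told apart. The labels gave all groups.

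Counts were tested with edgeR 4.0.16 (R 4.3.3) in one model of 40 libraries and 12 group means after filterByExpr and TMM scaling, with Benjamini-Hochberg adjustment over the 17106 genes kept. A change with age was called at an adjusted p below 0.05 and an absolute log2 fold change above 0.3, and a difference between steps at an adjusted p below 0.05. Errors beside fold changes are standard errors. Replicate libraries of a group differed by more than sampling noise (chi-square per degree of freedom 7.84 to 33.0). The test was tried on simulated data.

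Named genes were up to 15 per direction with the largest change (mean of at least 5 CPM in a group, replicates not overlapping), up to 6 called members of each list or, with none called, up to 2 of highest CPM, up to 8 per test of differences, and Nr3c1. A few genes that the rule names are not reported here. Genes outside this rule are said to be named after their values were seen. Members, lists and tests were chosen with earlier results of these data known. Alternatives were DESeq2 1.42.0, other scalings, filters, fits and covariates, a replicate block and leaving out single libraries. Those left out were each of the 6 P28 and P21 NR GR-Con libraries and P21 DR GR-Con replicate 2. No other DR library and no GR-KO library was left out. Gene positions, gene lengths and promoters are from RefSeq (GRCm38.p6).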

Additional observations from a re-analysis of the deposited data

Results flagged for a closer look

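The P28 over P21 step differed between light- and dark-reared GR-Con nuclei, by edgeR's test of the difference (light minus dark, log2), for Ubb-ps (2.65 ± 0.35, edgeR adjusted p = 0.000146), Scarna2 (1.59 ± 0.29, edgeR adjusted p = 0.0191), Stab2 (-1.4 ± 0.27, edgeR adjusted p = 0.0259), Hes5 (1.09 ± 0.22, edgeR adjusted p = 0.041), Zfp36l2 (1.01 ± 0.17, edgeR adjusted p = 0.0051), Zfp280b (0.90 ± 0.19, edgeR adjusted p = 0.0418), Camk1d (-0.90 ± 0.18, edgeR adjusted p = 0.0259) and Nrarp (0.88 ± 0.18, edgeR adjusted p = 0.041). Scarna2 was not called without P21 NR replicate 2 (1.37). Stab2 was not called without P21 NR replicate 2 (-1.44), P21 NR replicate 3 (-1.1) or P28 NR replicate 2 (-1.31). Zfp36l2 was not called without P21 NR replicate 2 (0.90). Zfp280b was not called without P21 NR replicate 1 (0.85), P21 NR replicate 2 (0.84), P28 NR replicate 2 (0.88), P28 NR replicate 3 (0.90) or P21 DR replicate 2 (0.93). Camk1d was not called without P21 NR replicate 1 (-0.88), P21 NR replicate 2 (-0.93), P28 NR replicate 2 (-0.92) or P28 NR replicate 3 (-0.83). Hes5 and Nrarp lost the call as described above, and Ubb-ps kept it with each of these libraries left out. Without P21 NR GR-Con replicate 2 a single gene kept such a difference, against 11 with all libraries.

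The step differed between GR-Con and GR-KO nuclei under light (GR-Con minus GR-KO, log2) for Ifit1 (3.54 ± 0.67, edgeR adjusted p = 0.0131), Ddx60 (2.97 ± 0.62, edgeR adjusted p = 0.0323), Mx2 (2.7 ± 0.49, edgeR adjusted p = 0.0107), Usp18 (2.36 ± 0.50, edgeR adjusted p = 0.0381), Ifit3 (2.27 ± 0.48, edgeR adjusted p = 0.0385), Parp14 (2.24 ± 0.39, edgeR adjusted p = 0.01) and Stab2 (-1.74 ± 0.31, edgeR adjusted p = 0.01), all by edgeR. Without P28 NR GR-Con replicate 2, the library with the highest sum of interferon-induced genes of the 6, the difference for Stab2 was -1.65, and none of the 7 was called. No GR-KO library was left out.

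In the 16 groups of 4 dark-reared libraries looked at for the genes of the light and dark difference, a single library stood apart from the other 3 by Dixon's test in 2: Scarna2 at 8.35 CPM in P28 DR GR-Con replicate 4, and Hes5 at 19.3 CPM in P21 DR GR-Con replicate 4. Chance alone gives this in about 1 of 20 groups.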

How the results depend on the processing

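The count of calls between P28 and P21 (404; 239 higher, 165 lower) depended on the model more than the direction of named genes did: in none of the alternatives that kept the P21 libraries did a named gene turn its direction. DESeq2's Wald test called 622 genes (310 lower). Fits of the 6 libraries alone and of the 9 NR GR-Con libraries called 325 and 262 genes lower. With the fold threshold inside the test 18 genes were called (8 higher, 10 lower). With neuron and oligodendrocyte scores as covariates 1560 were (759 higher, 801 lower), and with the slope on gene length 1377 (726 higher, 651 lower). Of the alternatives chosen after the data were seen, thinning every library to one depth gave 235 calls (120 higher), the microglia score 1080 (548 higher, 532 lower), and the Rn45s share 43 (20 higher, 23 lower). The causes of these shifts were not tested. With the 4 P21 DR GR-Con libraries in place of the 3 of NR, also chosen after the data were seen, 491 genes were called, 109 of them among the 404; the log2 fold change turned its sign there for Scarna2 (-0.014), Rnu3a (-0.13), Id3 (-0.16), Srebf1 (-0.070) and Rspo3 (0.036).

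Leaving out 1 of the 6 libraries gave 129 to 381 calls (66 to 237 higher, 63 to 146 lower): 129 without P21 replicate 1, 175 without P21 replicate 2, 160 without P28 replicate 2 and 251 without P28 replicate 1. The differences between light and dark numbered 1 to 30 (11 with all libraries) and those between genotypes 1 to 40 (24 with all). DESeq2 called 110 and 92 of these, and 7 differences between genotypes were called after thinning. Without P21 DR GR-Con replicate 2 the dark-reared comparison had 266 calls in place of 669.

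The replicate numbers did not pair the samples, since same-numbered P28 and P21 libraries had correlations of their deviations of -0.043, -0.039 and -0.024. With the replicate number as a block, 268 genes were called (157 higher), with 4 differences between light and dark and 1 between genotypes.

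In simulated counts for this comparison (16934 genes), 40 of 100 genes changed by 0.5 on the log2 scale and 63 of 98 changed by 1 were called, with 7 false calls; depth, replicate number and spread were not varied one at a time.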
